A study of Mus musculus with 56 samples.

Results

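The genes described here set how much protein a muscle fibre builds and breaks down, and their mRNAs were measured in mouse gastrocnemius. The set holds 10 genes that were listed by name for their known roles (Trim63, Fbxo32, Fbxo30, Foxo1, Foxo3, Mstn, Acvr2b, Fst, Igf1 and Eif4ebp1) and matched by symbol to the count table. All 10 were among its 15539 genes, and all 10 passed the filter on low counts that left 14321 genes for testing. The rule used no measured value, but the genes were chosen with earlier results of these data known.

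Muscle mass reflects the balance between protein synthesis and protein breakdown. On the side of breakdown, Trim63 (MuRF1), Fbxo32 (atrogin-1) and Fbxo30 (MUSA1) encode ubiquitin ligases that mark muscle proteins for the proteasome, and Foxo1 and Foxo3 encode transcription factors that switch such ligases on when insulin or IGF signalling through Akt is low. Mstn encodes myostatin, a secreted brake on muscle growth that signals through the activin receptor Acvr2b, and follistatin (Fst) binds myostatin and activins and blocks them. On the side of synthesis, Igf1 activates Akt and mTORC1, while Eif4ebp1 encodes 4E-BP1, a repressor of cap-dependent translation that mTORC1 switches off.

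The mice fell into 8 groups of 7 C57Bl/6 mice, which combined sex, genotype label and wheel. Male controls with locked wheels are called MC and those with running wheels MCE, and males labelled as lacking HuR in skeletal muscle are called MH and MHE. Females are called FC, FCE, FH and FHE in the same way. Controls were littermates that carried floxed Elavl1, the gene of HuR, without Cre, and mice of both labels thus carried the floxed alleles. In labelled mice Cre was driven by the Mlc1f promoter, which belongs to Myl1 and is active in muscle fibres, so that satellite cells, fibroblasts, vessels and blood cells of the same sample kept the gene. The labels give 10 weeks of wheel access but differ on when it began. One text places it between week 10 and week 20 of age and the other gives the mice as 5 months old when the wheels were provided, and it was not settled which holds. A whole gastrocnemius sample holds all these cell types, and fewer cells of a type cannot be told apart from less RNA per cell.

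Total counts per mouse ran from 6639782 to 21633091. Levels are given as CPM, the counts of a gene scaled to a common library total by TMM normalization, and differences as log2 fold changes of a limma fit with voom weights over all 56 mice. A gene was called at an adjusted p (Benjamini-Hochberg over the 14321 genes) of 0.05 or less. Muscle markers were high in every mouse, with Acta1, skeletal actin, at 18874 CPM or more. Elavl1 did not separate the labels. It lay between 37.7 and 70.3 CPM in the 28 labelled mice and between 27.8 and 61.9 CPM in the 28 controls (log2 fold change 0.13 ± 0.06 (SE), limma adjusted p = 0.15). These totals cannot tell reads of the deleted stretch from the others. Between running males Elavl1 was higher in the labelled mice (0.44 ± 0.11 (SE), limma adjusted p = 0.0242). There MCE mice 13, 10 and 25 had 27.8, 30.7 and 40.2 CPM. The other MCE mice had 54.5 to 60.8 CPM, inside the MHE range of 53.2 to 70.3 CPM. Myl1, the gene whose promoter drives the Cre, was lower in labelled mice (log2 fold change -0.65 ± 0.11 (SE), limma adjusted p = 5.61e-05), but unevenly. MH mice 8 and 12 had 13104 and 13700 CPM of Myl1, inside the MC range of 8829 to 13952 CPM, whereas the other 5 MH mice had 2317 to 6511 CPM. MHE mouse 4 (10885 CPM) lay inside the MCE range of 10355 to 13576 CPM. Among females, FH mouse 31 (9771 CPM) lay inside and FH mouse 34 (13298 CPM) above the FC range of 8681 to 9866 CPM, and FHE mice 7 and 10 (8441 and 8180 CPM) lay inside the FCE range of 7505 to 10332 CPM. Directions given for labelled mice therefore rest on the labels. Markers of liver were uneven too, with sums of 24 markers over 1000 CPM in 4 mice (FC 15, FH 19, MC 19 and MH 8). Leaving out these 4 mice ended 2 of the 24 member calls given in the text, and both are named where they are given.

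Promoter entries of RefSeq (GRCm38.p6) were found for 7 of the 10 genes. Those of Trim63 and Mstn are shown because both genes differed between the sexes and both windows hold a TATA box and several E-boxes, the motif of MyoD-type factors. The 200 bases before each start site read 5′ to 3′ on the plus strand, with motifs in capitals.
Trim63, chr4:134314920-134315119: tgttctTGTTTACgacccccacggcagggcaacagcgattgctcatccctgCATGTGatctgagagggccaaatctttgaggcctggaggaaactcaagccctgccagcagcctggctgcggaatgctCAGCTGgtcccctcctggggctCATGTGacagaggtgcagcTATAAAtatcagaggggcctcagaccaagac
Mstn, chr1:53061440-53061639: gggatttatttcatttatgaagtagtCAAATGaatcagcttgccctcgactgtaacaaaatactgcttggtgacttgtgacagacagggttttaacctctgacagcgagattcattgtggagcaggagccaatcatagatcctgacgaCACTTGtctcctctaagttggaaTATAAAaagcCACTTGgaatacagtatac
The window of Trim63 held the FoxO motif GTAAACA, read on the other strand as TGTTTAC, at -194 from the start, and none of the other 6 windows held it. That motif stood in 3.65% of all 32851 promoter entries of 300 bases. TATAAA stood at -31 in Trim63 and at -29 in Mstn, and in 13.6% of all entries. E-boxes (CANNTG) are common, in 72.3% of entries. The Trim63 window held 3 of them, at -149, -72 and -50, and the Mstn window 4, at -229, -174, -52 and -19, the first of which lies before the bases shown. Foxo1 and Igf1 held 1 each. A Smad box (GTCTAGAC, in 0.213% of entries) matched none of the 7 windows. Both strands were searched, and no matches overlapped. A match here is a description of letters and not a bound site.

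HuR binds AU-rich stretches in the 3′ ends of mRNAs, and the AU-rich nonamer TTATTTATT is the strictest of the letter patterns searched. After the stop codon (GENCODE M21, GRCm38), it occurred in Eif4ebp1 and Fst and in 8.12% of 12857 tested genes. These 2 genes are shown because Eif4ebp1 was the single member called between the genotype labels and Fst held the most copies.
Eif4ebp1, chr8:27276145-27276169, plus strand: ccgaaaatTTATTTATTattatatg
Fst, chr13:114453252-114453276, minus strand: gtgtatgcTTATTTATTtgggggga
Fst, chr13:114453007-114453031, minus strand: agcagttgTTATTTATTgtgaggtc
Fst, chr13:114452837-114452861, minus strand: tgtcatgtTTATTTATTggattctc
Capitals mark the nonamer, and each line reads 5′ to 3′ on the strand of the gene. The shorter pattern ATTTA, which the nonamer contains, occurred in 9 of the 10 members and in 70.4% of genes. It was absent from the 714 bases after the stop codon of Trim63 and occurred 18 times in the 6308 bases of Igf1. Eif4ebp1 had 6 copies in 1563 bases and Fst 10 in 1514 bases.

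Of the 10 genes, 9 were called in at least 1 of 18 comparisons, and Foxo1 in none. The share of all genes called in at least 1 of the 18 was not computed. The comparison of the sexes averaged over wheel and label alone called 33% of all genes. Sex gave the most calls. Within the 12 comparisons of 7 against 7 mice, which make 120 tests of a member, 15 were called, namely 12 between the sexes, 2 between the wheels and 1 between the labels. Over all 14321 genes 6.17% of such tests were called. By kind of comparison, 12 of 40 member tests were called between the sexes, against 13.5% of the tests of all genes, 2 of 40 between the wheels, against 3.97%, and 1 of 40 between the labels, against 1.04%. In 5 of the 120 the 7 and 7 mice did not overlap, which was so in 1.75% of the tests of all genes. The group means of a gene spanned from 1.17-fold (Foxo1) to 2.18-fold (Fst). Ordered by mean, each group's range overlapped that of the next group for all 10 genes, which was not computed over all genes. Groups further apart in that order did not always overlap, as with FC and MC for Mstn and Eif4ebp1.

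**Figure D1:**
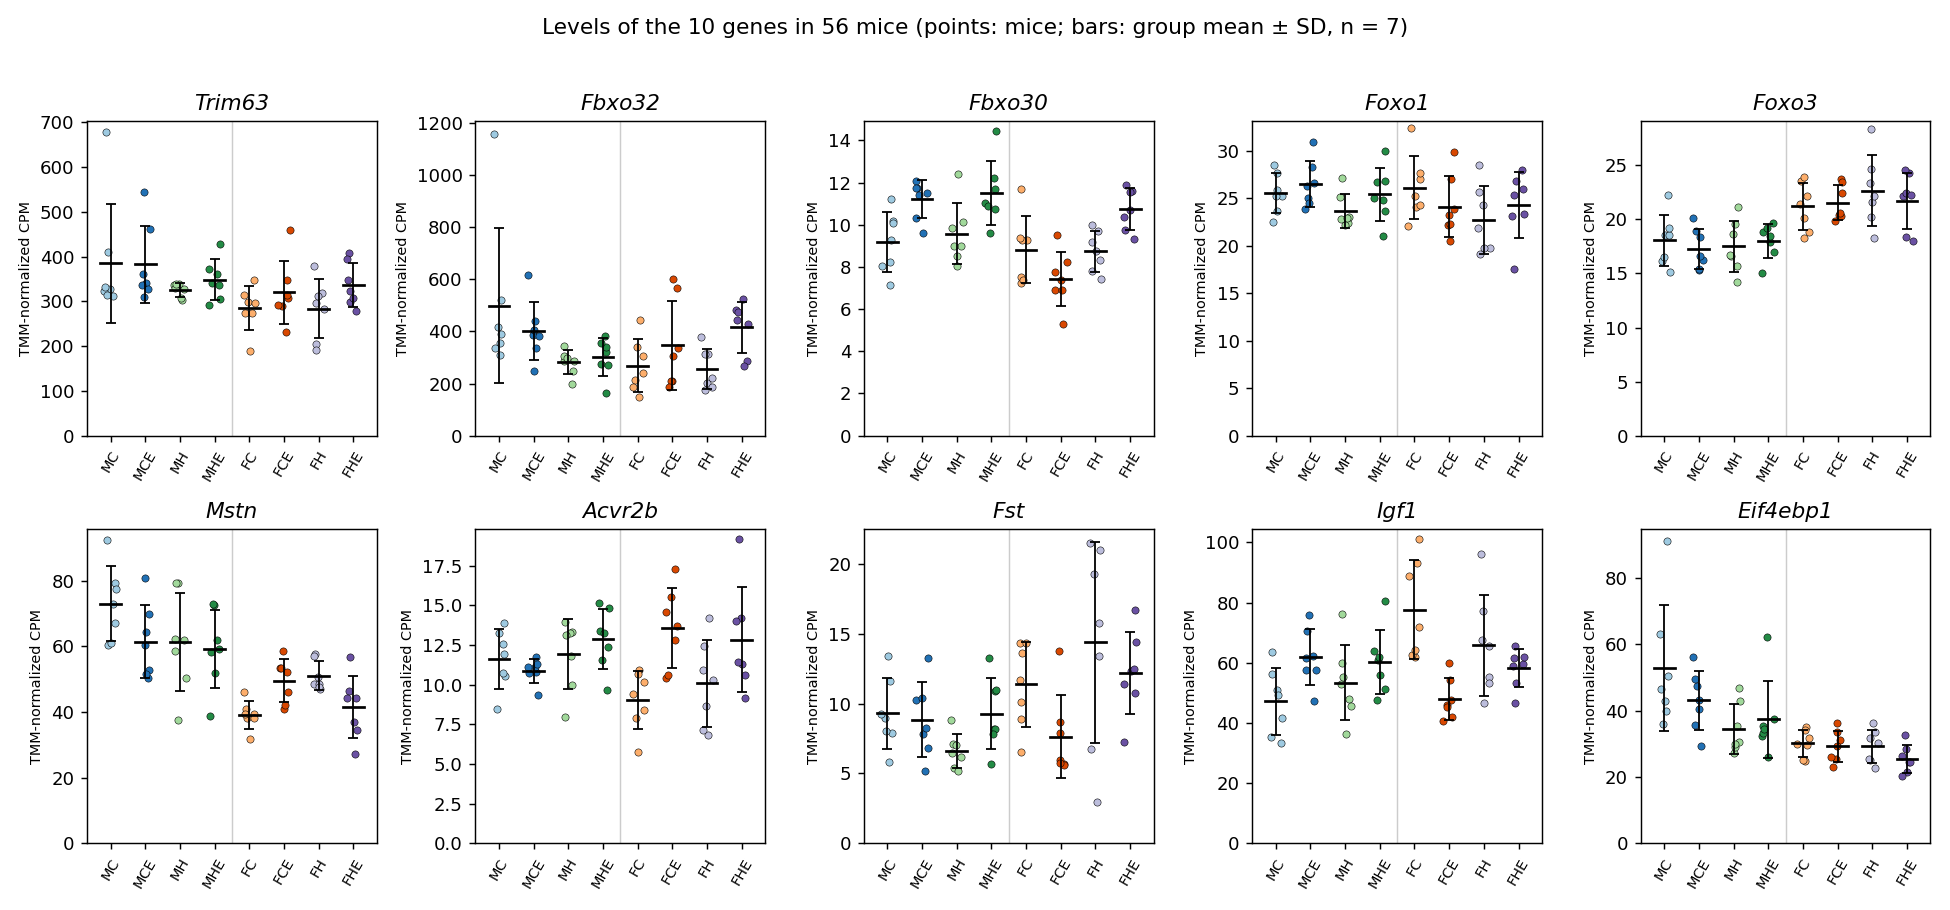
Level of each of the 10 genes (vertical axis, TMM-normalized CPM) in the 8 groups (horizontal axis, 4 male groups left of the grey line, 4 female groups right of it). Points are mice and bars are the group mean ± SD (n = 7), and Mstn and Eif4ebp1 sit higher in males while Foxo3 sits higher in females.

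Between the sexes, 5 of the 10 genes differed when averaged over wheel and label, 4 lower in females (Mstn, Eif4ebp1, Trim63 and Fbxo30) and 1 higher (Foxo3). Over all genes 33% were called in this comparison, 15.8% higher and 17.1% lower in females, so sex differences were common in this muscle. The median of the 10 log2 fold changes was -0.14 against 0.00 over all genes tested.

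Mstn, the secreted growth inhibitor, had the smallest adjusted p of the 10 between the sexes. Its level was 27.2 CPM at the lowest, 46.2 at the median and 58.5 at the highest in the 28 females, and 37.6, 61.9 and 92.6 CPM in the 28 males. No female reached the male median. The log2 fold change was -0.49 ± 0.07 (SE), with a limma adjusted p of 3.21e-08. The gap was widest between locked controls, where the FC mice had 31.8 to 46.1 CPM and the MC mice 60.4 to 92.6 CPM without overlap. There the log2 fold change was -0.90 ± 0.14 (SE) (limma adjusted p = 1.41e-06; two-sided exact permutation p = 0.000583, the smallest that 7 against 7 mice can give), in a comparison that called 21.5% of all genes. It was also called between running labelled mice (FHE against MHE, -0.53 ± 0.13 (SE), limma adjusted p = 0.00923; 5.57% of all genes called). The values in the other 2 strata were -0.31 and -0.23, neither of them called.

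Eif4ebp1, the translation repressor 4E-BP1, had a difference of like size. Females ran from 20.4 over a median of 28.9 to 36.3 CPM, and males from 26.1 over 38.7 to 91.2 CPM. Every female lay below the male median, and the log2 fold change was -0.50 ± 0.08 (SE) (limma adjusted p = 7.61e-07). Between FC (24.9 to 34.9 CPM) and MC (35.9 to 91.2 CPM) the mice did not overlap, with a log2 fold change of -0.75 ± 0.16 (SE) (limma adjusted p = 0.000293). MC mouse 20 held the highest value, and without it the log2 fold change was -0.61 (limma adjusted p = 0.00265). The sexes also differed in running controls (-0.54 ± 0.16 (SE), limma adjusted p = 0.0247; 7.65% of all genes called) and in running labelled mice (-0.52 ± 0.16 (SE), limma adjusted p = 0.04), while locked labelled mice gave -0.22 (limma adjusted p = 0.368). Both running calls were close to the threshold. The first was lost without any 1 of FCE mice 1, 5, 9 and 27 and MCE mice 5, 10 and 13 (limma adjusted p = 0.0522 to 0.0858). The second was lost without any 1 of FHE mice 2, 3, 7, 8 and 22 and MHE mice 4, 6 and 21, and it was furthest from a call without MHE mouse 4, at 62.1 CPM (-0.38, limma adjusted p = 0.185).

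Of the 3 ubiquitin ligases, Trim63 and Fbxo30 were lower in females on average. Trim63 had 188.7 CPM at the lowest, 302.5 at the median and 459.3 at the highest in females and 291.6, 336.1 and 677.4 CPM in males (log2 fold change -0.24 ± 0.07 (SE), limma adjusted p = 0.00649), and 7 of 28 females lay above the male median. Fbxo32 ranged more widely, from 147.1 to 601.5 CPM in females and from 162.1 to 1156 CPM in males, and its averaged difference of -0.22 ± 0.12 (SE) was not called (limma adjusted p = 0.17). Between locked controls both were called, Trim63 at -0.41 ± 0.14 (SE) (limma adjusted p = 0.0311) and Fbxo32 at -0.83 ± 0.24 (SE) (limma adjusted p = 0.00885). Both of these calls rested on MC mouse 20, which had 677.4 CPM of Trim63 and 1156 CPM of Fbxo32. Without it the 2 log2 fold changes were -0.26 (limma adjusted p = 0.169) and -0.61 (limma adjusted p = 0.0586). Trim63 in locked controls was also no longer called without FC mouse 32, FC mouse 12 or MC mouse 19 (limma adjusted p = 0.113, 0.0547 and 0.0565). In running labelled mice Fbxo32 leaned the other way, with 268.7, 442.9 and 523.4 CPM in FHE and 162.1, 322.5 and 381.3 CPM in MHE, a difference of 0.47 ± 0.24 (SE) that was not called (limma adjusted p = 0.287).

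Fbxo30, the ligase MUSA1, had 5.31 CPM at the lowest, 9.23 at the median and 11.9 at the highest in females and 7.13, 10.2 and 14.5 CPM in males. The averaged log2 fold change was -0.21 ± 0.06 (SE) (limma adjusted p = 0.00243). The stratum furthest from 0 was that of running controls, where the FCE mice (5.31 to 9.49 CPM) lay below all MCE mice (9.61 to 12.1 CPM). That difference was -0.60 ± 0.12 (SE), with a limma adjusted p of 0.000258. In the other 3 strata it was between -0.12 and -0.02 and was not called.

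Foxo3 was higher in females. It lay at 18.04 CPM at the lowest, 22.2 at the median and 28.4 at the highest in females and at 14.2, 18.2 and 22.2 CPM in males, and 27 of 28 females exceeded the male median. The log2 fold change was 0.30 ± 0.05 (SE) (limma adjusted p = 3.41e-07). It was the most even of the sex differences, at 0.25 in locked controls, 0.34 in running controls, 0.38 in locked labelled mice and 0.26 in running labelled mice, with calls in the middle 2 (limma adjusted p = 0.0144 and 0.00194). The FH against MH comparison called 19.3% of all genes. Foxo1, the related factor, did not differ measurably, with medians of 24.2 CPM in females and 25.1 CPM in males and a 95% confidence interval of -0.16 to 0.03 for the log2 fold change.

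Of the extracellular factors, Igf1 was called between the sexes in locked controls and in no other stratum. FC mice had 61.9, 72.0 and 101.1 CPM and MC mice 33.2, 49.2 and 63.5 CPM, so that all 7 FC mice exceeded the MC median. The log2 fold change was 0.72 ± 0.14 (SE) (limma adjusted p = 0.000149), against -0.37 ± 0.14 (SE) in running controls (limma adjusted p = 0.106) and 0.15 ± 0.07 (SE) on average (limma adjusted p = 0.0915). Fst, which neutralizes myostatin, was called only between locked labelled mice, where FH mice had 2.96, 15.8 and 21.5 CPM and MH mice 5.17, 6.48 and 8.82 CPM. Its log2 fold change of 0.84 ± 0.29 (SE) (limma adjusted p = 0.0323) was lost without any 1 of FH mice 13, 14, 17, 19 and 30 and MH mice 8, 9 and 12 (lowest value 0.65, without FH mouse 17, limma adjusted p = 0.12) and without the 4 mice of high liver markers (0.66, limma adjusted p = 0.137). Within FH the spread was split, with FH mice 34 and 31 at 2.96 and 6.73 CPM and the other 5 between 13.4 and 21.5 CPM. FH mice 34 and 31 were also the 2 with the most Myl1 in that group, 13298 and 9771 CPM. Acvr2b, the receptor, was not called between the sexes (-0.07 ± 0.07 (SE), limma adjusted p = 0.51).

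**Figure D2:**
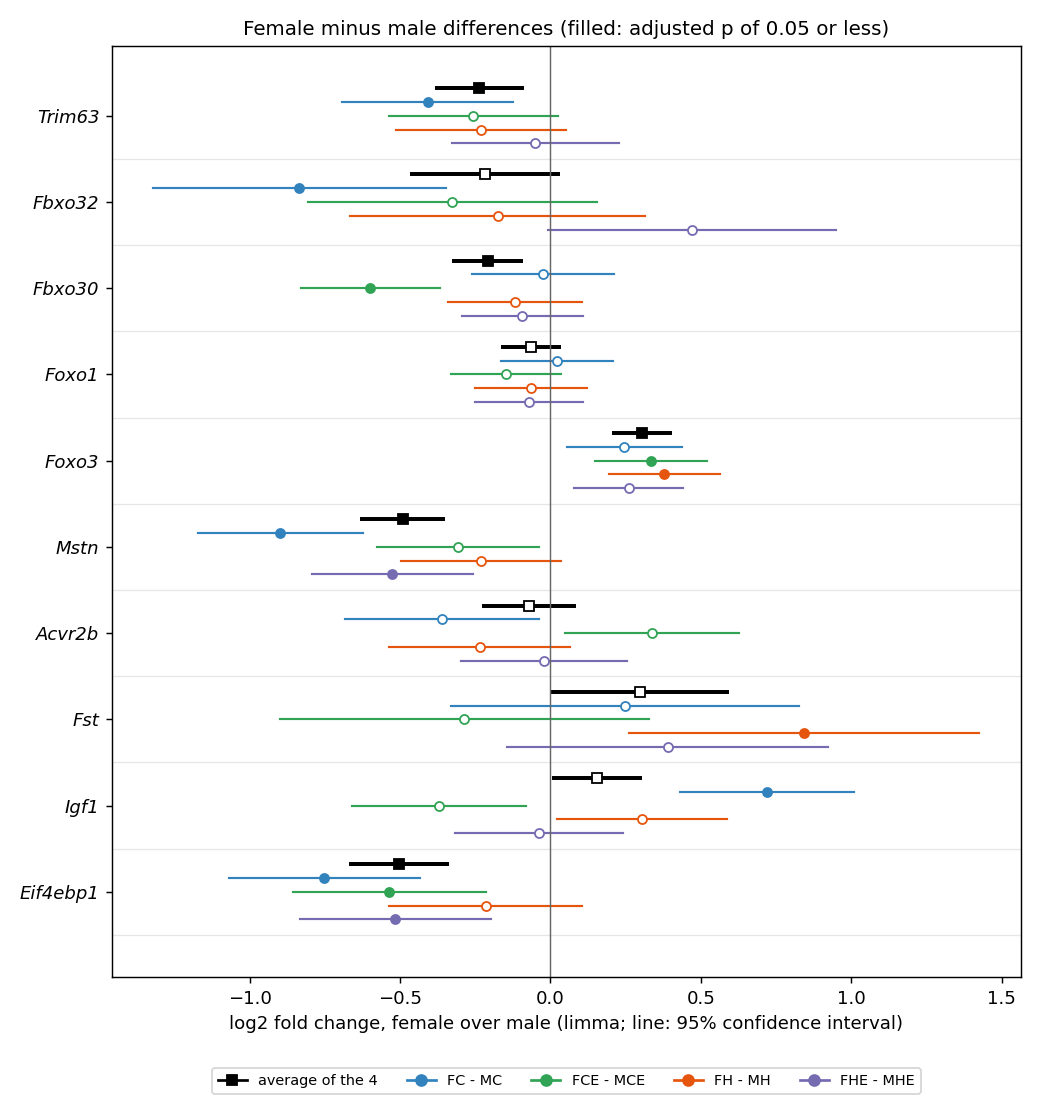
Female minus male log2 fold change of each gene (horizontal axis; vertical axis, the 10 genes) with its 95% confidence interval, for the average of the 4 strata (black squares) and for each stratum (coloured circles). Filled symbols had an adjusted p of 0.05 or less: Mstn, Eif4ebp1, Trim63 and Fbxo30 lie left of 0 on average and Foxo3 right of it.

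Markers of other cell types and of slow fibres moved with sex as well. All 9 slow-fibre markers were called higher in females, with sums of 1468 to 3129 CPM in females and 976 to 2816 CPM in males, and 5 of 9 fast-fibre markers were lower. All 9 fibroblast markers were higher (1621 to 5329 CPM against 1210 to 3019 CPM), as were 8 of 10 adipocyte markers (279.7 to 816 CPM against 217.9 to 468.6 CPM) and 5 of 8 leukocyte markers. Of 6 markers of red blood cells 5 were higher, with a median log2 fold change of 0.72 and sums of 1050 to 6399 CPM in females and 740.1 to 2274 CPM in males, and their part in the sex differences was not tested. The adipocyte-defining genes Adipoq and Plin1 had at least 2.03 and 1.05 CPM in every mouse. With the mean of the adipocyte markers as a covariate, the averaged sex differences of Mstn, Eif4ebp1 and Trim63 became -0.29, -0.24 and -0.19 and were no longer called (limma adjusted p = 0.072, 0.237 and 0.357). With the fibroblast markers they became -0.32, -0.21 and -0.17, and Mstn alone stayed called (limma adjusted p = 0.0222). With the leukocyte markers Trim63 was lost (-0.17, limma adjusted p = 0.0986). The differences of Foxo3 (0.32 and 0.38) and Fbxo30 (-0.27 and -0.30) stayed called with either the adipocyte or the fibroblast markers, and with slow-fibre markers as a covariate all 5 stayed called, Foxo3 at 0.23 and Mstn at -0.31. Of the 12 calls in single sex comparisons, 4 stayed with the adipocyte markers, 4 with the fibroblast markers, 8 with the leukocyte markers and 7 with the slow-fibre markers. Those lost with the fibroblast markers included Mstn between FC and MC (-0.59, limma adjusted p = 0.0703), Eif4ebp1 between FC and MC (-0.23, limma adjusted p = 0.626) and Fst between FH and MH, which turned to -0.07 (limma adjusted p = 0.948).

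Wheel running differed in its relation to Igf1 and Acvr2b between the sexes. For these 2 of the 10 genes the wheel difference in females minus that in males was called, in a comparison that called 13.7% of all genes. For Igf1 the difference of differences was -0.72 ± 0.14 (SE) on the log2 scale (limma adjusted p = 0.000372). FC mice had 61.9, 72.0 and 101.1 CPM and FCE mice 40.5, 45.9 and 59.9 CPM, so that every running female control lay below every locked one. The log2 fold change was -0.70 ± 0.14 (SE) (limma adjusted p = 0.00151; two-sided exact permutation p = 0.000583), where 8.74% of all genes were called. In male controls the values went the other way, from 33.2, 49.2 and 63.5 CPM in MC to 47.4, 61.6 and 75.7 CPM in MCE, a log2 fold change of 0.39 ± 0.14 (SE) that was not called (limma adjusted p = 0.122; 3.24% of all genes called). Labelled mice had smaller values of the same signs, -0.15 ± 0.14 (SE) in females and 0.19 ± 0.14 (SE) in males. Averaged over the 4 strata, Igf1 was at -0.07 ± 0.07 (SE) (limma adjusted p = 0.672).

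Acvr2b, the receptor of myostatin and activins, was higher with running in female controls. Levels were 5.77, 9.385 and 10.9 CPM in FC and 10.4, 13.7 and 17.3 CPM in FCE, and all 7 FCE mice lay above the FC median with a narrow overlap of the ranges. The log2 fold change was 0.59 ± 0.16 (SE) (limma adjusted p = 0.013). Labelled females had 6.83, 10.3 and 14.2 CPM with locked and 9.17, 11.4 and 19.2 CPM with running wheels (0.34 ± 0.15 (SE), limma adjusted p = 0.197; 3.85% of all genes called). In males the log2 fold changes were -0.10 ± 0.15 (SE) in controls and 0.13 ± 0.14 (SE) in labelled mice, with levels of 8.44 to 13.9 CPM in MC and 9.33 to 11.8 CPM in MCE. The difference between the sexes was 0.45 ± 0.15 (SE) (limma adjusted p = 0.0314), and leaving out the 4 mice of high liver markers gave 0.41 (limma adjusted p = 0.0748). It was also lost without any 1 of FC mouse 20, FCE mouse 28, FH mouse 31 and MC mouse 20 (limma adjusted p = 0.0501 to 0.0524).

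**Figure D3:**
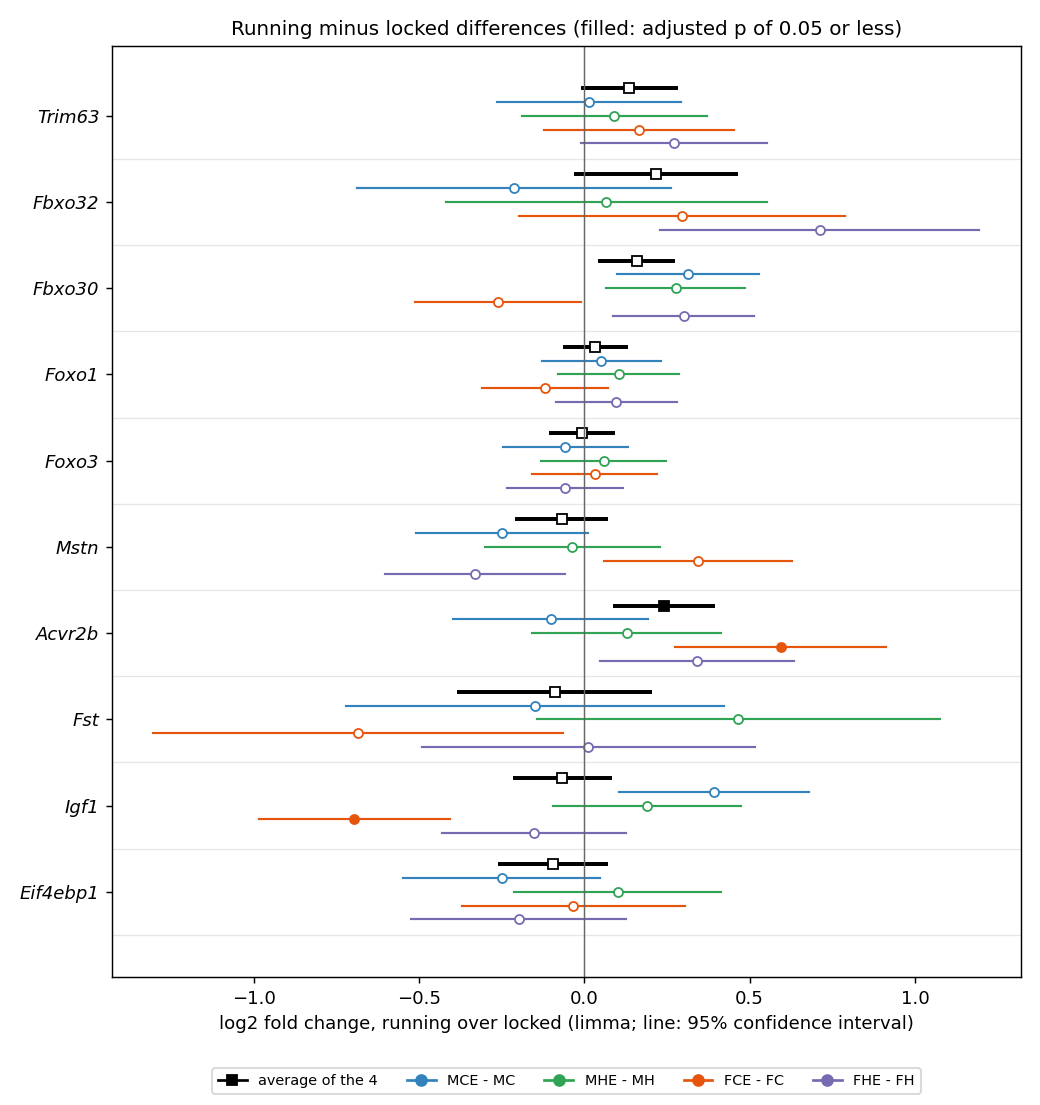
Running minus locked log2 fold change of each gene (horizontal axis; vertical axis, the 10 genes) with its 95% confidence interval, for the average of the 4 strata (black squares) and each stratum (coloured circles). Filled symbols had an adjusted p of 0.05 or less: the FCE minus FC circle of Igf1 lies at -0.70 and that of Acvr2b at 0.59, and the only filled average is that of Acvr2b at 0.24.

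Markers of other cell types moved with this comparison as well. Fibroblast markers summed to 2693 to 5329 CPM in FC and to 1621 to 2498 CPM in FCE, and 8 of the 9 were called lower in the wheel by sex comparison. Of 8 leukocyte markers tested 6 were called lower, with sums of 111.5 to 258.8 CPM in FC and 70.6 to 152.2 CPM in FCE, and of 10 adipocyte markers 4 were lower. Of 6 red blood cell markers 4 were lower, both there (median -0.76) and between FCE and FC (median -0.88), with sums of 1763 to 6399 CPM in FC and 1050 to 3035 CPM in FCE. Between FCE and FC 4 of 24 liver markers were lower as well, with sums of 148.1 to 4332 CPM in FC and 44.3 to 243 CPM in FCE, as were 2 of 6 ribosomal and small RNAs (206223 to 258393 CPM against 201400 to 231607 CPM). In the wheel by sex comparison 4 of 10 skeletal muscle and 3 of 9 fast-fibre markers were higher. The part of the red blood cell, RNA class and muscle markers in these differences was not tested. With the liver markers as a covariate both stayed called, Igf1 at -0.64 and Acvr2b at 0.48. With the fibroblast markers as a covariate, the difference of differences was -0.45 for Igf1 (limma adjusted p = 0.191) and 0.27 for Acvr2b (limma adjusted p = 0.585). With the leukocyte markers the values were -0.42 (limma adjusted p = 0.141) and 0.41 (limma adjusted p = 0.255). With the adipocyte markers Igf1 stayed called at -0.64 (limma adjusted p = 0.006), and Acvr2b did not at 0.28 (limma adjusted p = 0.285). Within female controls, the wheel difference of Igf1 was -0.48 with the fibroblast and -0.45 with the leukocyte markers (limma adjusted p = 0.114 and 0.0921), and that of Acvr2b was 0.44, 0.56 and 0.36 with the fibroblast, leukocyte and adipocyte markers (limma adjusted p = 0.217, 0.0845 and 0.293). The same covariates gave Igf1 in FC against MC 0.35, 0.39 and 0.58 with fibroblast, leukocyte and adipocyte markers, none of them called.

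**Figure D4:**
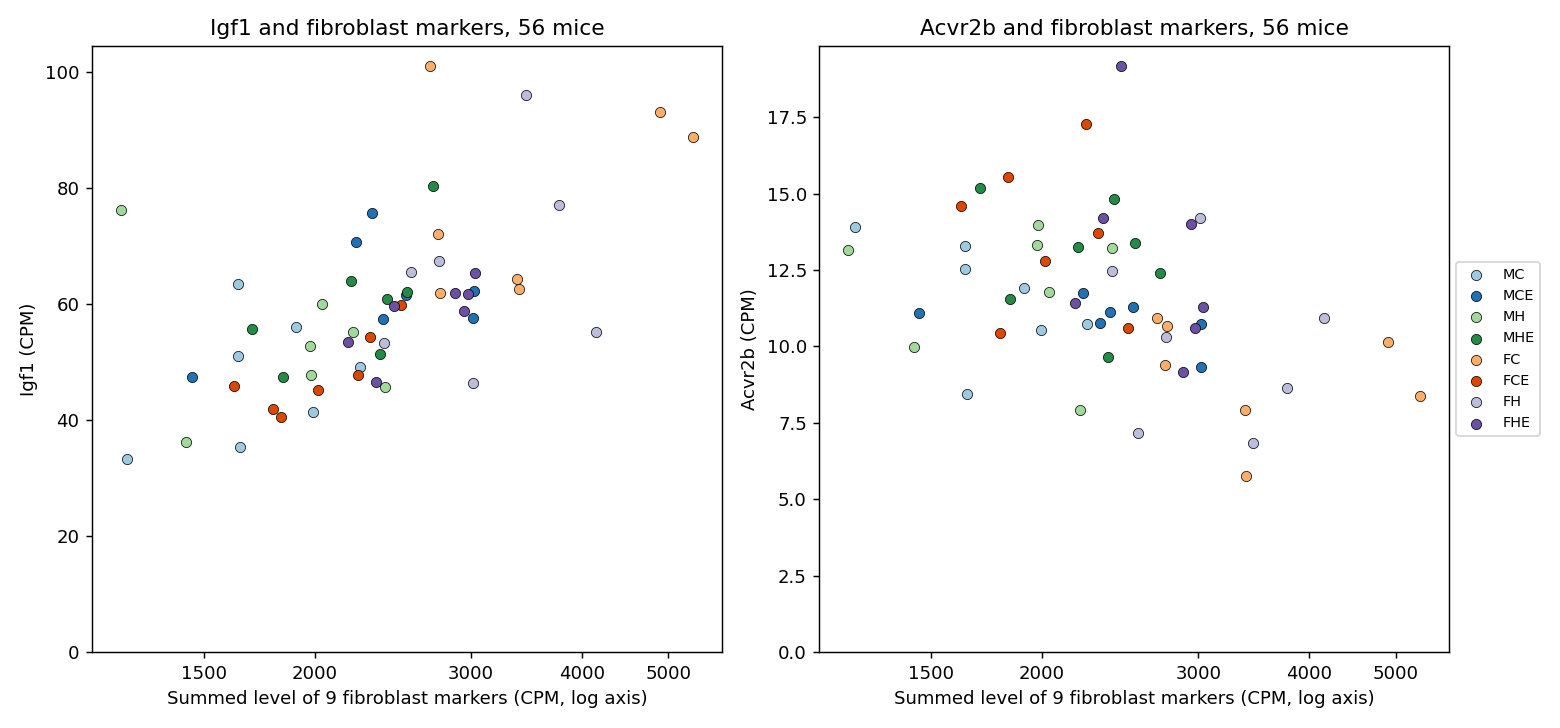
Level of Igf1 (left) and Acvr2b (right) in CPM against the summed level of 9 fibroblast markers (horizontal log axis, CPM) in each of 56 mice, coloured by group. FC mice lie to the right, with fibroblast sums of 2693 to 5329 CPM against up to 4149 CPM in the other groups, with Igf1 at 61.9 CPM or more and Acvr2b at 10.9 CPM or less.

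Averaged over sex and label, running changed 1 of the 10 genes. Acvr2b had 9.17 CPM at the lowest, 11.7 at the median and 19.2 at the highest in the 28 running mice and 5.77, 10.7 and 14.2 CPM in the 28 locked mice, with a log2 fold change of 0.24 ± 0.07 (SE) (limma adjusted p = 0.0395). Over all genes 5.96% were called, 3.42% higher and 2.54% lower with running. The call was lost when any 1 of 23 mice, some in each of the 8 groups, was left out (lowest 0.21, without FHE mouse 10, limma adjusted p = 0.0724) and with the liver (0.27, limma adjusted p = 0.0549) or adipocyte markers (0.16, limma adjusted p = 0.208) as a covariate. Other lists moved with running too. Of 24 liver markers 7 were lower (median -1.84; sums of 20.8 to 771.3 CPM in running and 24.5 to 4332 CPM in locked mice), of 9 fast-fibre markers 6 were lower and 1 higher (73466 to 107461 CPM against 80051 to 114713 CPM), of 10 skeletal muscle markers 3 were lower and 2 higher, and of 6 ribosomal and small RNAs 2 were lower (144470 to 245117 CPM against 163202 to 258393 CPM). The part of the fibre, muscle and RNA class lists in the result was not tested. Fbxo30 came next at 0.16 ± 0.06 (SE) (limma adjusted p = 0.0771). All 7 running mice exceeded the locked median in MCE, MHE and FHE, with log2 fold changes of 0.31, 0.28 and 0.30, whereas 1 of 7 did in FCE, at -0.26. None of these 4 was called, and the smallest limma adjusted p among them was 0.0903.

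Other members leaned with running in single strata without a call. Fbxo32 was 174.0, 221.3 and 377.7 CPM in FH and 268.7, 442.9 and 523.4 CPM in FHE, where all 7 running mice exceeded the locked median (log2 fold change 0.71 ± 0.24 (SE), limma adjusted p = 0.0813). Mstn leaned to opposite sides in the 2 kinds of females, from 31.8, 39.3 and 46.1 CPM in FC to 40.9, 52.2 and 58.5 CPM in FCE (0.34 ± 0.14 (SE), limma adjusted p = 0.12), and from 47.2, 48.6 and 57.7 CPM in FH to 27.2, 44.3 and 56.7 CPM in FHE (-0.33 ± 0.14 (SE), limma adjusted p = 0.172). In labelled males none of the 10 was called with running, where the limma fit called 0.0419% of all genes. There 1 member and 1821 of the 14321 genes had an unadjusted limma p under 0.05, and edgeR and DESeq2 called no member. Foxo1 and Foxo3 stayed within 0.12 of 0 on the log2 scale in every wheel stratum.

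Between the genotype labels, 1 of the 10 genes was called, in a comparison that called 11.8% of all genes (4.43% higher and 7.41% lower in labelled mice). Eif4ebp1 had 20.4 CPM at the lowest, 30.3 at the median and 62.1 at the highest in the 28 labelled mice and 23.1, 35.3 and 91.2 CPM in the 28 controls. The ranges overlapped widely, and the log2 fold change was -0.26 ± 0.08 (SE) (limma adjusted p = 0.0223). It kept its call when each mouse in turn was left out. In locked males it was 27.05, 30.5 and 46.7 CPM in MH against 35.9, 46.6 and 91.2 CPM in MC (-0.58 ± 0.15 (SE), limma adjusted p = 0.0469; 1.15% of all genes called), but this single call was lost without MC mouse 20 (-0.43, limma adjusted p = 0.187) and without any 1 of 34 other mice. In the other strata the values were -0.22 in running males, -0.04 in locked females and -0.20 in running females, where the limma fit called 2.63%, 0.384% and 0% of all genes. The 2 MH mice with Myl1 in the control range, mice 8 and 12, had the highest Eif4ebp1 of that group, 46.7 and 42.9 CPM, against 27.05 to 35.4 CPM in the other 5. MHE mouse 4 had the most Myl1 (10885 CPM) and the most Eif4ebp1 (62.1 CPM) of its group. FH mice 31 and 34 had the highest Eif4ebp1 of theirs, 36.3 and 33.55 CPM. In FHE this was not so. Mice 7 and 10, with Myl1 in the control range, had 24.5 and 28.5 CPM of Eif4ebp1. The most was in FHE mouse 21 (32.7 CPM), which had 5033 CPM of Myl1.

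Slow-fibre markers moved with the label, 8 of 9 of them higher, with sums of 1059 to 3129 CPM in labelled mice and 976 to 2372 CPM in controls. With their mean as a covariate the label difference of Eif4ebp1 was -0.13 (limma adjusted p = 0.641). With liver, adipocyte, fibroblast or leukocyte markers it lay between -0.26 and -0.22 and stayed called. Of 7 Schwann cell markers 3 were higher in labelled mice, with sums of 105.4 to 362.4 CPM against 119 to 316 CPM in controls, and their part in the result was not tested. Over all genes whose 3′ ends were read, the median label log2 fold change was 0.02 with the AU-rich nonamer and 0.01 without it.

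Fbxo30 lay just past the threshold on the other side, with 7.41, 9.93 and 14.5 CPM in labelled mice and 5.31, 9.28 and 12.1 CPM in controls (log2 fold change 0.16 ± 0.06 (SE), limma adjusted p = 0.0519). In running females all 7 labelled mice (9.31 to 11.9 CPM) exceeded the FCE median of 7.40 CPM, and the ranges overlapped by 1 control mouse. Its log2 fold change there was 0.54 ± 0.12 (SE) (limma adjusted p = 0.084; two-sided exact permutation p = 0.00117). Of the 10 genes 4 had an unadjusted p under 0.05 in that comparison, in which limma and edgeR called 0 genes, DESeq2 called 5 and 1807 genes had an unadjusted p under 0.05. Mstn in locked females did not overlap between FH (47.2 to 57.7 CPM) and FC (31.8 to 46.1 CPM), yet its log2 fold change of 0.39 ± 0.14 (SE) was not called (limma adjusted p = 0.165). The comparison of FC with FH and those of FC with MC and FCE share the FC mice, which had the lowest Mstn mean of the 8 groups, 39.2 ± 4.22 CPM (SD, n = 7). Fbxo32 in males was 199.6, 288.3 and 344.1 CPM in MH and 310.3, 390.0 and 1156 CPM in MC (-0.69 ± 0.24 (SE), limma adjusted p = 0.131).

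No member was called for a label effect that differed between the sexes or a wheel effect that differed between the labels. Both interactions called 0.00698% of all genes, which is 1 gene each, and 0 of the 10 members. In each of them 2 members had an unadjusted limma p under 0.05. So did 1104 of the 14321 genes for label by sex and 1613 for wheel by label. Neither edgeR nor DESeq2 called a member. For label by sex the 2 were Fbxo32 and Fst (0.64 ± 0.29 (SE), limma adjusted p = 0.585). For wheel by label the 2 were Fst (0.66 ± 0.29 (SE), limma adjusted p = 0.375) and Fbxo30 (0.26 ± 0.11 (SE), limma adjusted p = 0.368). The label by sex value furthest from 0 was that of Fbxo32 (0.73 ± 0.24 (SE), limma adjusted p = 0.405), for which labelled males had lower and labelled females higher medians than controls (292.5 against 387.5 CPM in males and 314.1 against 272.2 CPM in females).

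Within groups, mice varied together in Trim63 and Fbxo32. Over the deviations of 56 mice from their group means, Pearson's r was 0.702 and Spearman's rho 0.652, each with an adjusted permutation p of 0.00045 over 45 pairs, the smallest that 100000 permutations within groups can give after that adjustment. Without the 2 mice farthest from the median of Trim63, r was 0.598, and within males and females r was 0.71 and 0.695. MC mouse 20 was the highest of its group in both genes, and FC mouse 32 the lowest. Among 14320 other genes Fbxo32 ranked 2 by rho with Trim63, and Trim63 ranked 7 with Fbxo32. Foxo1, known as an activator of both ligases, ranked 140 with Fbxo32 and 470 with Trim63 (rho 0.415 and 0.334), and these pairs were not called over the 45. Fst and Eif4ebp1 varied in opposite ways (r = -0.393, rho = -0.445, adjusted permutation p = 0.0414 and 0.0254). Without the 2 farthest mice r was -0.457. The sign stayed with r at -0.337 given the slow-fibre and liver marker means, -0.365 in males and -0.518 in females. In none of these settings was the pair called by both measures, and each sex alone held 28 mice. The other 43 pairs were not called by both measures over all 56 mice. This pools the sexes, and Fbxo32 with Eif4ebp1 had r = 0.704 in males and -0.462 in females, against 0.207 over all. Whether correlations differed between the sexes was not tested.

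**Figure D5:**
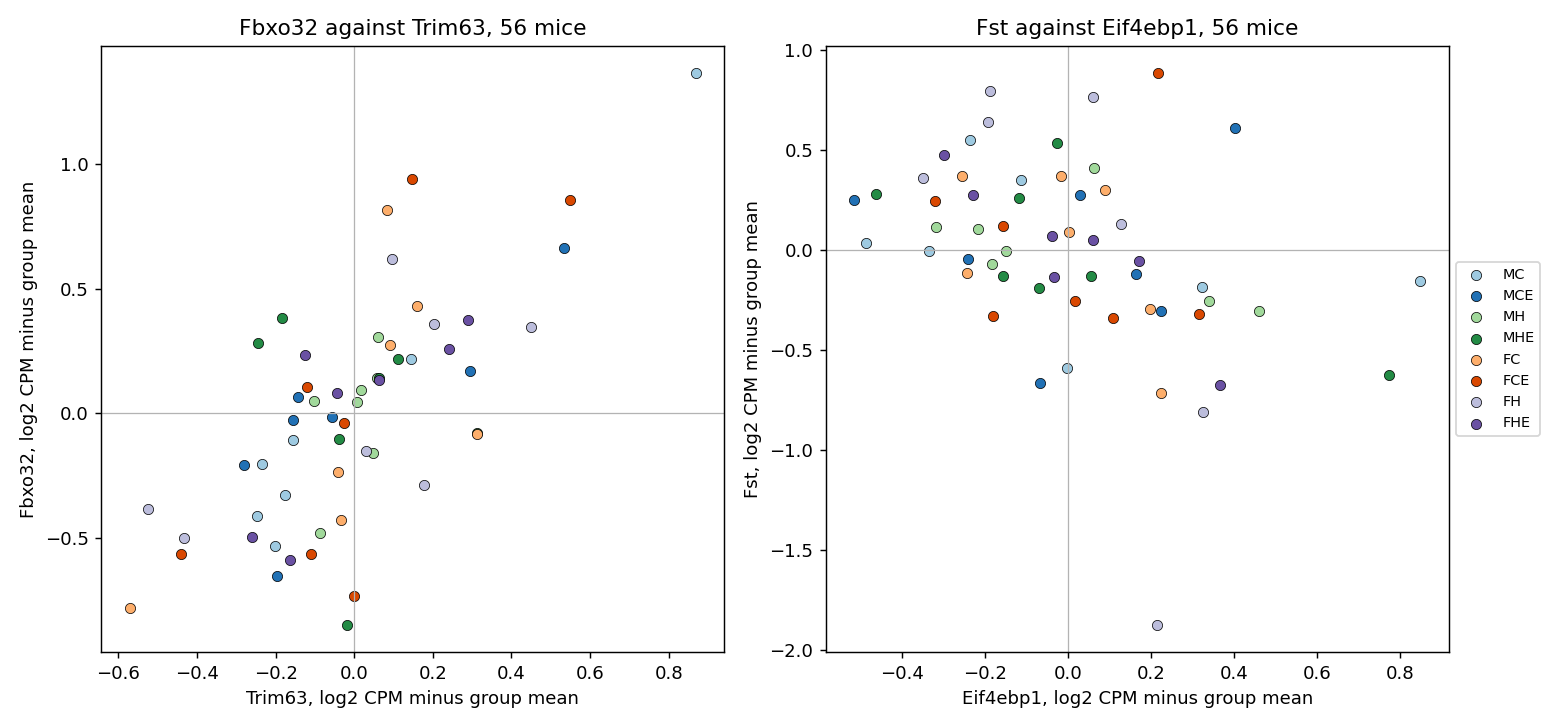
Deviation of each mouse from its group mean (log2 CPM) for Fbxo32 against Trim63 (left) and Fst against Eif4ebp1 (right), 56 mice coloured by group. Trim63 and Fbxo32 rise together (r = 0.702), with MC mouse 20 at the upper right, while Fst and Eif4ebp1 run in opposite ways (r = -0.393).

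By Spearman's rho over the same deviations, among 9053 genes of at least 50 counts on average, the gene most like both Trim63 and Fbxo32 was Pnrc1, a nuclear receptor coactivator (rho 0.735 and 0.703), and Fbxo32 was next most like the kinase gene Pim1 (0.7). Eif4ebp1 went most closely with Serpinb6a (0.788) and the proteasome subunit gene Psmd7 (0.759). Fst was most like Ndufb3 (0.694) and Itm2b (0.689), and Igf1 was most like Sox4 (0.665) and Fndc3b (0.623). For the other 5 members the highest rho was between 0.48 (Foxo3 with Abra) and 0.609 (Fbxo30 with Man1c1).

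The wider ubiquitin-proteasome list held 25 genes besides the members. Counts of this and the following lists are to be read against the calls over all genes, which were 33% between the sexes (15.8% higher and 17.1% lower in females), 11.8% between the labels (4.43% higher and 7.41% lower in labelled mice), 5.96% with running and 13.7% for wheel by sex. In females 11 of the 25 were lower and 2 higher, and the falls furthest from 0 were those of the proteasome subunit gene Psmd8 (-0.96 ± 0.06 (SE), limma adjusted p = 3.59e-19) and of Trim54 (MuRF3, -0.48 ± 0.04 (SE), limma adjusted p = 6.59e-14), the close relative of Trim63. Trim55 (MuRF2) was higher (0.19 ± 0.07 (SE), limma adjusted p = 0.0442). The median log2 fold change of the list was -0.08 against 0.00 over all genes. Labelled mice had 6 of the 25 lower and none higher, beside 7.41% of all genes lower, among them the ligase genes Ubr2 (-0.22) and Fbxo31 (-0.20). With running 3 were higher, including Ubr2 (0.18 ± 0.05 (SE), limma adjusted p = 0.0186), and none lower, beside 3.42% of all genes higher.

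Of 17 autophagy and lysosome genes, 4 were lower and 2 higher in females, led by Sqstm1 (p62, an autophagy receptor, -0.50) and by the protease gene Ctsl (0.40). That share is near the 33% of all genes. In labelled mice 4 were lower and 1 higher, beside 7.41% and 4.43% of all genes, with Map1lc3b, a coat protein of autophagosomes, at -0.40 ± 0.06 (SE) (limma adjusted p = 1.43e-05) and Bnip3l, a mitophagy receptor, at -0.21 ± 0.05 (SE) (limma adjusted p = 0.00238). Running gave 1 call, Atg12 (-0.14). Other FoxO family members and targets, 16 genes, split evenly between the sexes, 5 higher and 5 lower beside 15.8% and 17.1% of all genes, from Sesn1, an inhibitor of mTORC1 (0.99 ± 0.06 (SE), limma adjusted p = 2.88e-20), to the repressor gene Bcl6 (-0.63 ± 0.07 (SE), limma adjusted p = 2.5e-11). Eif4ebp2, the paralog of Eif4ebp1, was lower in females (-0.30) and in labelled mice (-0.41), the same signs as Eif4ebp1, and had a wheel by sex difference of 0.92 ± 0.15 (SE) (limma adjusted p = 2.22e-05). In labelled mice, where 7.41% of all genes were lower, 5 of the 16 were, Gadd45a furthest at -0.56, and 1 was higher, the cell cycle inhibitor gene Cdkn1a at 0.38. With running 1 was higher, Sod2 at 0.15.

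Around Mstn, Acvr2b and Fst, 32 of 36 listed genes of the myostatin, activin and BMP pathways were tested, and 9 were higher and 7 lower in females, beside 33% of all genes called. Gdf11, the closest relative of myostatin, was lower like Mstn (-0.80 ± 0.12 (SE), limma adjusted p = 2.9e-07), whereas the activin subunit gene Inhbb (0.53) and the type I receptor gene Acvr1c (1.32 ± 0.18 (SE), limma adjusted p = 3.19e-08) were higher. In labelled mice, beside 11.8% of all genes called, 2 were higher, the follistatin relative Fstl3 (0.30) and the signal transducer gene Smad2 (0.30), and 4 lower, including Wfikkn2, which encodes an inhibitor of myostatin (-0.39 ± 0.08 (SE), limma adjusted p = 0.000949). With running 4 were higher and 1 lower, beside 5.96% of all genes called, with Inhba at 0.39 and Smad3 at 0.20 on one side and Id2 at -0.30 on the other. The wheel by sex comparison gave 1 higher, Smad4 (0.34), and 3 lower, a share near the 13.7% of all genes, including Dcn (-0.88) and Bmp4 (-0.78). Dcn is also one of the fibroblast markers.

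Of 36 genes of the IGF1, Akt and mTORC1 pathway, 12 were lower and 7 higher in females, beside 17.1% and 15.8% of all genes, with Igfbp6, an IGF binding protein gene (0.69), and Igf2 (0.46) above and the mTORC1 inhibitor genes Ddit4l (-0.35) and Tsc1 (-0.29) below. In labelled mice 7 were lower and 0 higher, beside 7.41% and 4.43% of all genes, including Igfbp5, an IGF binding protein gene (-0.24 ± 0.08 (SE), limma adjusted p = 0.0313). Running gave 2 calls, Rictor (0.18) and Insr (0.14), both higher, a share near the 5.96% of all genes. In the wheel by sex comparison 10 were higher and 2 lower, beside 13.7% of all genes called. The 10 higher, among them Tsc2 (0.44) and Akt1s1 (0.43), had the sign opposite to that of Igf1. The 2 lower, the binding protein genes Igfbp6 (-0.67) and Igfbp4 (-0.37), had the sign of Igf1 itself.

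Of 11 hormone and cytokine receptor genes, 4 were higher and 2 lower in females, beside 33% of all genes called, with the glucocorticoid receptor gene Nr3c1 at 0.28 and the cytokine receptor gene Lifr at -0.28. In labelled mice 2 were higher and 2 lower, beside 11.8% of all genes called, among them Tnfrsf12a, the receptor gene of TWEAK (0.61 ± 0.15 (SE), limma adjusted p = 0.0043), and Lifr (-0.13). Of 10 tested genes, of 13 listed, known for their response to denervation, 5 were higher and 2 lower in females, beside 33% of all genes called, from Sln (0.84) and Myog (0.80) to Musk (-1.32 ± 0.09 (SE), limma adjusted p = 1.47e-18). Labelled mice had 1 of them called, near the 11.8% of all genes, Chrna1, the acetylcholine receptor subunit gene (0.63 ± 0.10 (SE), limma adjusted p = 1.43e-05), and running changed none of the 10.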

How the data were processed

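Gastrocnemius RNA of 56 mice was sequenced. The authors deposited raw read counts per gene, not normalized, for 15539 genes, the lowest of which totals 168 over all mice. The sample labels name a kit for transcript 3′ ends and the study's methods a stranded total RNA kit, so levels were not compared between genes. The submitters' processing notes list GRCm38, R 4.0.3 and edgeR 3.38.4. The aligner is not given in the sources used here. Groups came from the labels. Mice of 1 group differed beyond sampling noise (chi-square divided by its degrees of freedom, 3.69 to 54.2), so none was counted as a repeat. The limma p-values set differences between groups against the spread between these mice. Total counts were 6639782 to 21633091 per mouse, which sets the counting error.

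Counts were filtered (filterByExpr), scaled by TMM in edgeR 4.0.16 and tested with voom and limma 3.58.1 in R 4.3.3, as 18 contrasts of 8 group means. Single comparisons also had two-sided exact permutation tests. Correlations used log2(CPM + 0.5) deviations and 100000 permutations within groups. The test was checked on simulated counts. Members, gene lists and tests were chosen with earlier results of these data known, so they are no independent support. All members were reported, with, from each pathway list and averaged comparison, up to 2 called genes each way, and for each member the 2 genes most like it. Myl1 and the pathway genes in the wheel by sex comparison were named after their values were seen. Alternatives were edgeR's quasi-likelihood test, DESeq2 1.42.0, other normalizations, filters, weights, marker covariates, a replicate block and each mouse left out. The fibroblast and leukocyte covariates and the fit without 4 mice of high liver markers were chosen after seeing the data. Results of some listed pathway genes are not reported here.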

Additional observations from a re-analysis of the deposited data

Results flagged for a closer look

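In 80 sets of 7 mice (10 genes in 8 groups), 5 had a mouse whose gap to the nearest other made up an unusually large part of the range, and chance alone flags about 1 in 20 such sets, or 4 of 80. MC mouse 20 was flagged in 2 of them, with 677 CPM of Trim63 (next 410 CPM) and 1156 CPM of Fbxo32 (next 522 CPM). MHE mouse 4 had 62.1 CPM of Eif4ebp1, with the next mouse at 37.6 CPM. FCE mouse 25 had 13.8 CPM of Fst, with the next at 8.69 CPM. MCE mouse 10 had the lowest Acvr2b of its group, 9.33 CPM, with the next at 10.7 CPM.

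The wheel difference differed between the sexes for 2 genes, by the interaction term of the limma fit. It was -0.72 on the log2 scale for Igf1 (limma adjusted p = 0.000372) and 0.45 for Acvr2b (limma adjusted p = 0.0314), each the difference in females minus that in males. The fibroblast, leukocyte and adipocyte markers that moved with it are given with the result above.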

How the results depend on the processing

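The 24 called values of the 10 genes kept their direction and call in 344 of 399 alternative fits, lost the call in 54 and turned direction in 1. With 1 mouse left out at a time they were kept in 1254 of 1344 fits and turned in none. edgeR, DESeq2, limma trend, sample quality weights, a filter of 10 counts in every mouse and a replicate block ended none of the 24 calls. Mouse numbers, which the labels do not tie to a litter or batch, are shared by 12 pairs of males and females, and 3 of these had a correlation over 0.1 (-0.119 to 0.282), and the replicate block (consensus correlation 0.0222) changed no call. The calls lost were mostly those with marker covariates, 14 of 24 with adipocyte, 13 with fibroblast (and 1 turned), 10 with leukocyte, 7 with slow-fibre and 3 with liver markers. The cause was not tested.

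The number of members called between the sexes was 2 with adipocyte and 3 with fibroblast markers, and 6 with edgeR or DESeq2, against 5. For the label it was 0 with slow-fibre markers, and 2 with sample quality weights, upper-quartile normalization, the filter of 10 counts or the mice of high liver markers left out, against 1. For the wheel it was 0 with liver or adipocyte markers and 2 with quality weights, against 1. For wheel by sex it was 4 with quality weights, 1 with adipocyte markers or without the mice of high liver markers, and 0 with fibroblast or leukocyte markers, against 2. Over the 12 single comparisons it was 7 with adipocyte, 9 with slow-fibre, 5 with fibroblast and 8 with leukocyte markers, against 15. Of the 2 called pairs of members, 1 call remained in the partial correlation, in males only and in females only. Fst with Eif4ebp1 lost its call in each of these but kept its sign. With each mouse left out in turn the counts ran from 0 to 2 for the wheel, 1 to 2 for the label, 5 to 6 for sex, 1 to 3 for wheel by sex and 13 to 16 for the single comparisons, and stayed at 0 for the other interactions. Elavl1 ran from 0.10 to 0.15 between the labels, never called.

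Values that turned direction were not called except Fst between FH and MH, which was -0.0699 with fibroblast markers. Fst between the sexes was -0.25 with adipocyte, -0.0382 with slow-fibre and -0.32 with fibroblast markers. With fibroblast markers Fst was also 0.35 in wheel by sex and 0.0537 between FCE and FC, and Igf1 was -0.0486 between the sexes and -0.0014 between FH and MH.

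Over all genes, the calls between the sexes fell from 4720 to 1182 with adipocyte, 1591 with fibroblast and 3035 with slow-fibre markers, and those of wheel by sex from 1961 to 973 with adipocyte, 171 with fibroblast and 363 with leukocyte markers. Calls between the labels fell from 1695 to 39 with slow-fibre markers, and wheel calls from 854 to 563 with liver markers or rose to 1331 with quality weights. Fst, Fbxo30 and Acvr2b, the members of lowest CPM, have the widest counting error.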
